A study of Mus musculus with 3 samples.

Results

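A small number of endothelial cells was present among the sorted lung leukocytes of each library, and these cells were described here from naive lung to 3 days after lung transplantation. A cell was taken as endothelial when it held at least 3 UMIs (unique molecular identifiers, 1 per counted transcript) of Cdh5, Cldn5, Egfl7, Ramp2 and Pecam1 together, when these made at least 0.15% of its UMIs, and when at least 1 UMI came from Cdh5, Cldn5 or Ramp2. It also held no UMI of the T cell gene Cd3e or the B cell gene Cd79a and had under 2% of its UMIs in S100a8 and S100a9. By this rule 143 of 21425 kept cells were endothelial, from 22265 cells in the files. The cells were thus selected on their UMIs of these 9 genes, whose levels are given as a description only.

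The study asked how recipient leukocytes, B cells above all, change in lung ischemia-reperfusion injury, and it sorted CD45-stained cells to do so. The naive library came from left lungs of untransplanted C57BL/6J mice. Both other libraries came from left lungs of B6 (CD45.2) donors placed into B6 recipients of the CD45.1 form, with 60 min of cold ischemia at 4 °C and 45 min of warm ischemia at 28 °C, and harvested after 2 h or 3 d of reperfusion. The labels give C57BL/6J for each library, while the methods list B6 CD45.1 mice as the congenic strain B6.SJL-Ptprca Pepcb/BoyJ. No engineered allele is named for the mice of these libraries, the methods give an age of 8 to 10 weeks and both sexes, used at random, and cells of 2 mice were pooled in each library. The design names recipient CD45.1 cells as those sorted, and how this applied to naive mice, which have no recipient, is not stated. With 1 library per condition no difference between conditions has a replicate check, no p-value is given, and the intervals cover counting error only. Whether an endothelial cell of a graft came from the donor or the recipient was not resolved here.

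Endothelial cells line blood and lymph vessels and are held together by VE-cadherin (Cdh5), claudin-5 (Cldn5) and PECAM-1 (Pecam1). In the lung most of them form the alveolar capillaries, where general capillary cells carry Gpihbp1 and Kit, and larger aerocytes, specialised for gas exchange, carry Car4 and Ednrb. Arteries are marked by Gja5 and Efnb2, veins by Vwf, Vcam1 and Selp, and lymphatics by Prox1. Endothelial cells do not express Ptprc, the gene of CD45.

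The promoters of 2 gene groups described further on are shown first, because they carry the letters bound by the factors best known for these groups. ETS factors, which include the endothelial regulator Erg, recognise a core within AGGAAG, and interferon-activated factors recognise elements made of GAAA, any 2 bases (NN) and GAAA, called the interferon element below. Of the 30 endothelial marker genes that the rule did not use, 18 had a RefSeq promoter and 13 of these (72.2%) held AGGAAG on either strand within the 250 bases before a gene start, against 32.3% of all 27025 genes. Of the 24 interferon-response genes, 20 had a promoter and 11 of these (55.0%) held the interferon element, against 3.46% of all genes. The following promoters (GRCm38.p6, each on the gene's own strand, matches on either strand in capitals) are shown for Egfl7, the 1 of 2 rule genes with a promoter that held AGGAAG, at chr2:26583615-26583864, and for Gbp2 at chr3:142620413-142620662, Irgm1 at chr11:48871421-48871670 and Ifit1 at chr19:34640639-34640888, which are interferon-induced genes at lower levels in endothelial cells at 3 d.
Egfl7: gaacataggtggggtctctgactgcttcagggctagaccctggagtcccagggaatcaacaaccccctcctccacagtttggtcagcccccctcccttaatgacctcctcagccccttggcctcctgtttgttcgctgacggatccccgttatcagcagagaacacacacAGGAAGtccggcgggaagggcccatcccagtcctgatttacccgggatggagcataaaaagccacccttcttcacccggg
Gbp2: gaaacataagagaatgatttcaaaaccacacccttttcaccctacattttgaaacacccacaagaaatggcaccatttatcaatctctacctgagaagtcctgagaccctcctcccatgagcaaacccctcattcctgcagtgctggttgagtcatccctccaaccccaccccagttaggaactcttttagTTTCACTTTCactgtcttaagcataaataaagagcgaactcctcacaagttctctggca
Irgm1: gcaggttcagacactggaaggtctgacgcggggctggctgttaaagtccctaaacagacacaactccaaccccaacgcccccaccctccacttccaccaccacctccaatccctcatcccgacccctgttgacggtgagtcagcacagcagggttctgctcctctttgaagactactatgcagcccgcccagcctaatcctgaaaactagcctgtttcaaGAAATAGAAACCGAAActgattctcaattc
Ifit1: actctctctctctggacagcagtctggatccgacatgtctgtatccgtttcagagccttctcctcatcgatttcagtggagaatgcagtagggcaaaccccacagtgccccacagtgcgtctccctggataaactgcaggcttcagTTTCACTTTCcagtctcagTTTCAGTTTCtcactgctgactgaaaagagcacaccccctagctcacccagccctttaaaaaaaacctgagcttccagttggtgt
For Egfl7, Gbp2 and Irgm1 the start used lies inside the annotated gene. Egfl7 has other starts too, whose windows held 3 matches (chr2:26580833-26581082) and 0 matches (chr2:26586386-26586635), against 1 in the window shown. A match is a description of the letters in this window and not a measured binding site.

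Endothelial cells made 52 of 2628 kept cells in the naive library (1.98%, exact 95% interval 1.48 to 2.59%), 23 of 10283 at 2 h (0.224%, 0.142 to 0.335%) and 68 of 8514 at 3 d (0.799%, 0.621 to 1.01%). The 3 intervals did not overlap, and the naive share was highest. Cells reached these libraries only through a leukocyte sort, so the shares describe what passed the sort and not the number of endothelial cells in the lung. In the naive and 3 d libraries the cells held fewer UMIs than other cells, and at 2 h more. Median UMIs per endothelial cell were 1614 in the naive library, 1320 at 2 h and 1807 at 3 d, against 7837.5, 877 and 5819.5 in all other kept cells, and the depth in endothelial cells ranged from 433 to 27857 UMIs.

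Because depth was so uneven, a few cells weighed heavily in every sum. The 5 deepest endothelial cells held 39.4% of the endothelial UMIs of the naive library, 36.9% at 2 h and 30.04% at 3 d. The UMIs of all endothelial cells came to 201363 (naive), 31836 (2 h) and 240847 (3 d), so that 1 UMI stood for 4.97, 31.4 and 4.15 counts per 1000000 (CPM). The number of cells behind a value is therefore given for most of the genes described. No endothelial cell barcode was shared between the libraries.

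The rule genes were found together in most cells. At least 3 of the 5 were detected in 46 of 52 naive cells, 16 of 23 cells at 2 h and 58 of 68 cells at 3 d. Cdh5 was found in 45, 20 and 56 cells, and its summed level was 1326, 1759 and 1914 CPM (naive, 2 h and 3 d). Just inside the threshold, 10, 7 and 18 cells had 3 or 4 UMIs of the rule genes, while just outside it 6, 4 and 25 cells had 2.

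Genes that the rule did not use gave the same picture of identity. The 30 further endothelial genes, among them the angiopoietin receptors Tie1 and Tek, the transcription factors Erg and Sox17 and the endothelial phosphatase Ptprb, made a median of 2.62% of a cell's UMIs in the naive library, 1.95% at 2 h and 2.60% at 3 d. In all other kept cells the medians were 0.0214%, 0% and 0.012%. Each of the 143 cells held at least 1 UMI of these genes, and the lowest cell had 0.464%. Among the 10 genes with the highest ratio of level in endothelial cells over all other kept cells, 4 in the naive library, 2 at 2 h and 3 at 3 d belonged to the 30 further genes, and 1, 3 and 3 others were rule genes. Tspan7, a membrane tetraspanin, Adgrf5, an adhesion receptor of lung endothelium, and the hypoxia-inducible factor Epas1, none of them used by the rule, were on all 3 of these lists.

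Leukocyte genes were at low levels but were not absent. Ptprc was found in 5 of 52 cells in the naive library, 1 of 23 at 2 h and 16 of 68 at 3 d, never with more than 2 UMIs, although 97.0%, 51.0% and 96.5% of all other kept cells had a UMI of it. With each cell thinned to 1000 UMIs, which left out 18, 8 and 17 shallower cells, Ptprc was found in 2.94% of endothelial cells in the naive library, 6.67% at 2 h and 13.7% at 3 d, against 70.8%, 51.4% and 63.7% of T cells and 51.2%, 39.9% and 55.8% of B cells. The 15 pan-leukocyte genes made a median of 0.0178%, 0% and 0.0832% of the UMIs of an endothelial cell. A UMI of at least 1 of them was present in 30 of 52 naive cells, 5 of 23 cells at 2 h and 59 of 68 cells at 3 d. Summed they were at 983, 346 and 818 CPM, and as a mean over cells at 583, 312 and 1697 CPM, highest at 3 d, against sums of 6669, 6765 and 6975 CPM in T cells. No cell had more UMIs of the 15 genes than of the 30, as the plot of both gene groups by cell shows.

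**Figure D1:**
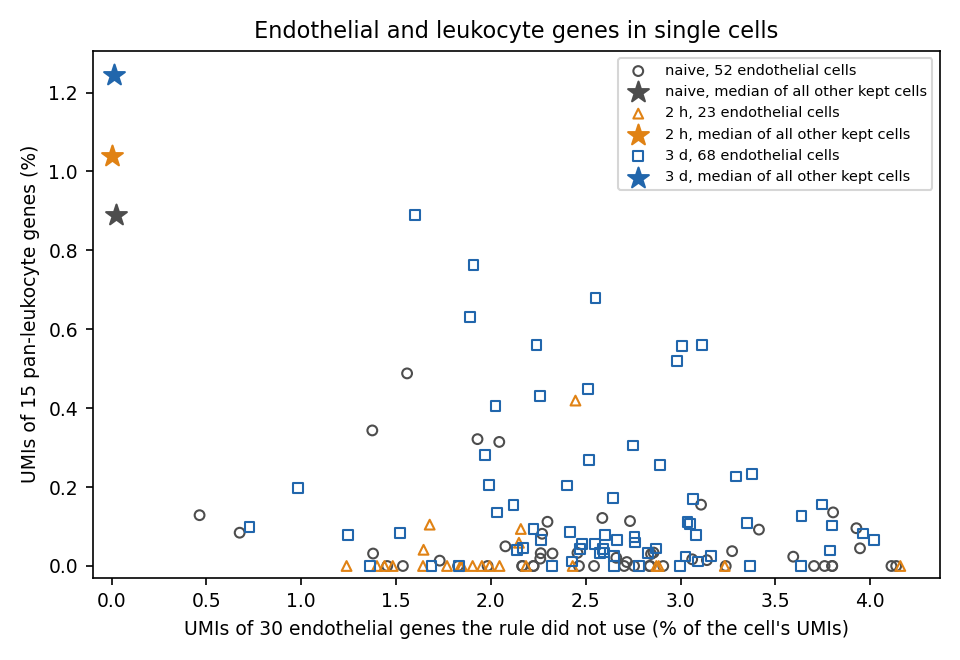
Each open symbol is 1 endothelial cell, placed by its share of UMIs in 30 endothelial genes that the rule did not use (x axis, percent) and in 15 pan-leukocyte genes (y axis, percent). Stars are the medians of all other kept cells of each library, and all 143 endothelial cells lie to the right of the 3 stars and below the lowest star, the highest of them at 0.890%.

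Neutrophil genes were measured beside this, with S100a8 and S100a9 held under 2% by the rule. S100a9 was found in 47.1% of thinned endothelial cells at 3 d, against 21.3% of T cells and 28.1% of B cells of the same library, and in 5.88%, 6.02% and 6.56% in the naive library (unthinned, 14 of 52 naive cells, 4 of 23 at 2 h and 47 of 68 at 3 d). A UMI of at least 1 of 8 neutrophil genes was present in 19, 4 and 62 cells. Their summed level in endothelial cells was 134, 126 and 781 CPM in the naive, 2 h and 3 d libraries, that of T cells was 281, 1255 and 583 CPM, and that of B cells was 113, 1512 and 778 CPM. In the 3 d library the summed level thus lay as high in B cells as in endothelial cells. As a mean over endothelial cells the level was 273, 102 and 1524 CPM. S100a8, S100a9, Lyz2 and Fn1 had higher levels at 3 d in endothelial cells, with log2 ratios of 2.73, 1.95, 1.12 and 2.88. The part of UMIs from other cells in the differences that follow was not tested.

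Genes of other cell types were found to differing extents. Pericyte and smooth muscle genes summed to 3 UMIs over 14 genes in the naive library, 4 at 2 h and 8 at 3 d, T cell genes to 7, 0 and 5 over 10 genes, and mesothelial genes to 0, 0 and 2 over 6 genes. Monocyte and macrophage genes (14 listed) had more, 59, 5 and 155 UMIs in 26 of 52, 3 of 23 and 60 of 68 cells, or 293, 157 and 644 CPM, with Lyz2 the most abundant at 3 d, while T cells had 739.9, 320.1 and 2305 CPM of them and B cells 672, 433 and 3456 CPM. Alveolar epithelial genes (16 listed) had 74, 23 and 164 UMIs in 29, 10 and 21 cells, most of them from the homeobox gene Hopx at 243, 597 and 465 CPM. Airway epithelial genes (10 listed) had 18, 0 and 58 UMIs in 10, 0 and 27 cells, with Tppp3 the most abundant. The monocyte and airway lists were thus found in the largest share of cells at 3 d. The surfactant gene Sftpc was found in 4 of 52, 1 of 23 and 2 of 68 cells. Fibroblast genes (14 listed) had 151, 14 and 537 UMIs in 35, 7 and 46 cells. Their most abundant member in each library, the cytoskeletal linker Macf1, is widely expressed. One deep cell stood apart at 3 d. It had 22551 UMIs and held 350 of the 537 fibroblast gene UMIs there.

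Surface protein gave a readout that the rule did not touch. The 2 h and 3 d libraries also held counts of 277 oligonucleotide-tagged antibodies, and the naive library had none. CD49f is integrin alpha 6, a laminin receptor that endothelial cells carry on their basal side. In endothelial cells it took 9555 of every 10000 antibody counts at 2 h (95% interval 9357 to 9755) and 8822 at 3 d (8706 to 8939). In T cells it took 2131 and 3417, in B cells 629 and 1396. These were the highest shares of the 3 cell types. Per cell, CD49f counts ran from 16 to 864 with a median of 345 at 2 h, and from 1 to 4453 with a median of 121 at 3 d, while medians in T cells were 6 and 14 and the highest of all other kept cells had 1349 and 9801.

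Antibodies to CD44, integrin beta 7 and CD45R took lower shares in endothelial cells, where CD49f filled most of the total. CD44 took 111 and 46.4 of every 10000 counts in endothelial cells at 2 h and 3 d, against 2683 and 1564 in T cells. Integrin beta 7 took 32.2 and 47.2 against 4872 and 4300 in T cells, and CD45R, the B cell form of CD45, took 10.7 and 14.01 against 3872 and 2196 in B cells. Per cell the median CD44 count was 4 at 2 h and 1 at 3 d in endothelial cells, against 3 and 5.5 in T cells and 5 and 4 in B cells, so that at 2 h the typical endothelial cell was not below the typical T cell. That of integrin beta 7 was 0 and 1, against 9 and 15 in T cells, and that of CD45R was 0 and 0, against 18 and 17 in B cells. Mac2, which reads galectin-3, a lectin abundant in macrophages, had a higher share than these. It took the second most counts in endothelial cells, 196 of every 10000 at 2 h and 997 at 3 d, against 42.2 and 543 in T cells, 90.1 and 1059.6 in B cells and 61.8 and 1141 in all other kept cells. Per cell, the median Mac2 count was 6 at 2 h and 16.5 at 3 d in endothelial cells, against 0 and 2 in T cells, 0 and 5 in B cells and 0 and 7 in all other kept cells. Endothelial cells were thus highest by median count per cell in both libraries, and as a share of summed counts only at 2 h. As a mean of the share in each cell they were highest in both, at 258 and 1470 of every 10000. The next highest were B cells at 2 h (92.8) and all other kept cells at 3 d (1157). Its transcript Lgals3 had 0 UMIs at 2 h and 7 UMIs in 6 cells at 3 d. CD49f exceeded CD44 in 23 of 23 and 68 of 68 endothelial cells, compared with 64.7% and 78.4% of T cells. Transcripts were measured as well. Itga6, which encodes CD49f, was at 220 and 490 CPM in endothelial cells at 2 h and 3 d, against 38.1 and 87.2 CPM in T cells, and Itgb7 was at 0 UMIs in endothelial cells of both libraries, which allows up to 94.2 CPM at 2 h, above the 64.02 CPM of T cells, and up to 12.5 CPM at 3 d, below their 176 CPM.

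**Figure D2:**
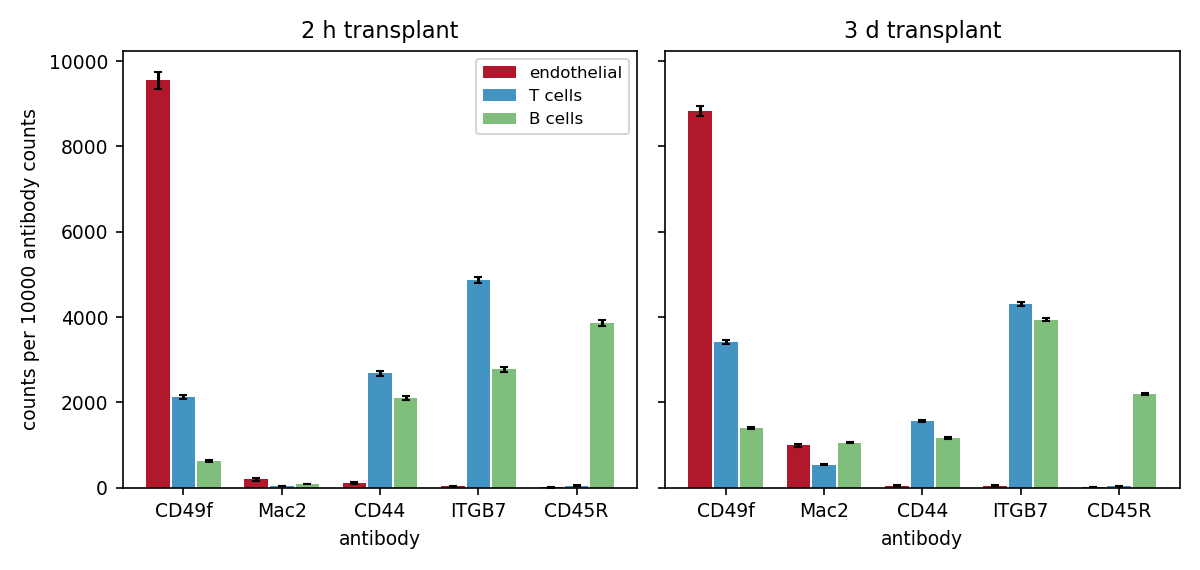
Bars give the counts of 5 antibodies per 10000 antibody counts (y axis) summed over endothelial, T and B cells of the 2 h and 3 d libraries, with exact 95% counting intervals. CD49f dominates in endothelial cells at 9555 and 8822, followed by Mac2 at 196 and 997, and CD44, ITGB7 and CD45R lie at 111 or less there.

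Most of the panel did not read. In endothelial cells 34 of the 277 antibodies had a count at 2 h and 38 at 3 d. In each library 7 took at least 10 of every 10000 counts, against 8 in T cells, so the shares above are shares among few antibodies. The 7 included the isotype controls Rat.IgG1.lambda (29.0 at 2 h and 14.01 at 3 d) and Rat.IgG1.k (12.9 and 15.2). CD45R, at 10.7 and 14.01, was no higher than either control. Integrin beta 7 at 2 h (32.2, interval 21.7 to 46.0) could not be told apart from Rat.IgG1.lambda, and at 3 d (47.2) it lay above both controls. Of 9 antibodies named for proteins of endothelial cells (CD31, CD34, CD93, CD102, CD105, CD144, CD146, CD202b and CD309), 9 were at 0 counts in endothelial cells at 2 h and 8 at 3 d, where CD105 had 1 count. CD29, the beta 1 integrin that pairs with CD49f, was at 0 in both. The antibody named CD45 took 0 counts in endothelial cells, but also only 0.552 of every 10000 counts in T cells at 2 h and 0 at 3 d. The feature list writes most targets in the capitals of human gene symbols, and the sources used here do not state which species each antibody binds. Absence of counts for these antibodies therefore says nothing about the protein. Total antibody counts per cell were higher in endothelial cells, with medians of 357 and 148 against 55 and 84 in all other kept cells.

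Within the endothelial cells, capillary genes were found in most cells of each library. A UMI of Gpihbp1, Kit or Aplnr was present in 33 of 52 naive cells, 15 of 23 cells at 2 h and 43 of 68 cells at 3 d. A UMI of the aerocyte genes Car4, Ednrb, Apln or Tbx2 was present in 19, 6 and 23 cells, and both groups were found together in 9, 4 and 8 cells. A UMI of the venous genes Vwf, Slc6a2 or Selp was present in 19, 6 and 24 cells, of which 14, 5 and 21 also held Gpihbp1, Kit or Aplnr. The arterial genes Gja5, Gja4, Bmx or Dkk2 were found in 13, 5 and 11 cells, 12, 2 and 11 of them with these capillary genes. In 4, 4 and 8 cells none of the vessel-type genes looked for was found. The lymphatic regulator Prox1 or its companions Mmrn1 and Reln were found in 3, 0 and 4 cells, while Lyve1, which capillary endothelium of the lung also expresses, was found in 24, 15 and 41 cells, or 29.4%, 53.3% and 43.1% of thinned cells.

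General capillary genes (10 listed) reached 5507, 4963 and 6336 CPM in the naive, 2 h and 3 d libraries. Gpihbp1, which anchors lipoprotein lipase to the capillary wall, was found in 27, 10 and 39 cells, or 44.1%, 40.0% and 49.02% of thinned cells, with overlapping intervals, against at most 0.625% of T or B cells. Kit, the stem cell factor receptor, was found in 3 of 34, 6 of 15 and 18 of 51 thinned cells (8.82%, 40.0% and 35.3%; unthinned, 18, 8 and 26 cells), with overlapping intervals of 1.86 to 23.7% in the naive library and 22.4 to 49.9% at 3 d. Sema3c, a secreted guidance factor, ran the other way with 1649, 785 and 693 CPM, in 27, 15 and 39 cells.

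The comparison of 3 d with naive was made on UMIs summed over the cells of each library, as the log2 ratio of CPM with 10 added to both sides. A gene was measured where the mean of both levels was at least 25 CPM and both libraries together held at least 30 UMIs, and called where the log2 ratio was at least 1 in size. Of 2943 genes measured, 171 (5.81%) were called higher at 3 d and 407 (13.8%) lower. A part of this was shared by other cells of the same libraries, so a second count took only genes whose ratio also lay at least 1 beyond those of T cells and of B cells. By that rule 90 genes (3.06%) were higher and 168 (5.71%) lower. Over all measured genes the median log2 ratio was -0.04.

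Intron length moved with the ratio in each cell type. The 502 measured genes with over 100 kb of introns had a median log2 ratio of -0.81 in endothelial cells, -0.69 in T cells and -0.76 in B cells, and made 214 of the 407 lower genes, whereas 80 genes without introns had medians of 0.29, 0.29 and 0.38. By the headers, naive counts were made with Cell Ranger 7.1.0 and those of both transplants with 6.0.0, and program version and condition cannot be told apart. Camk1d, a calcium-regulated kinase gene spanning chr2:5293457-5714515, has over 100 kb of introns. It had 1907 CPM in 49 of 52 naive cells and no UMI at 2 h or 3 d, with T and B cell log2 ratios of -4.40 and -4.19. The long non-coding Gm19951 and the Mediator kinase gene Cdk8 were also lower in endothelial, T and B cells. Their introns are shorter, at 2801 and 61813 bases.

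**Figure D3:**
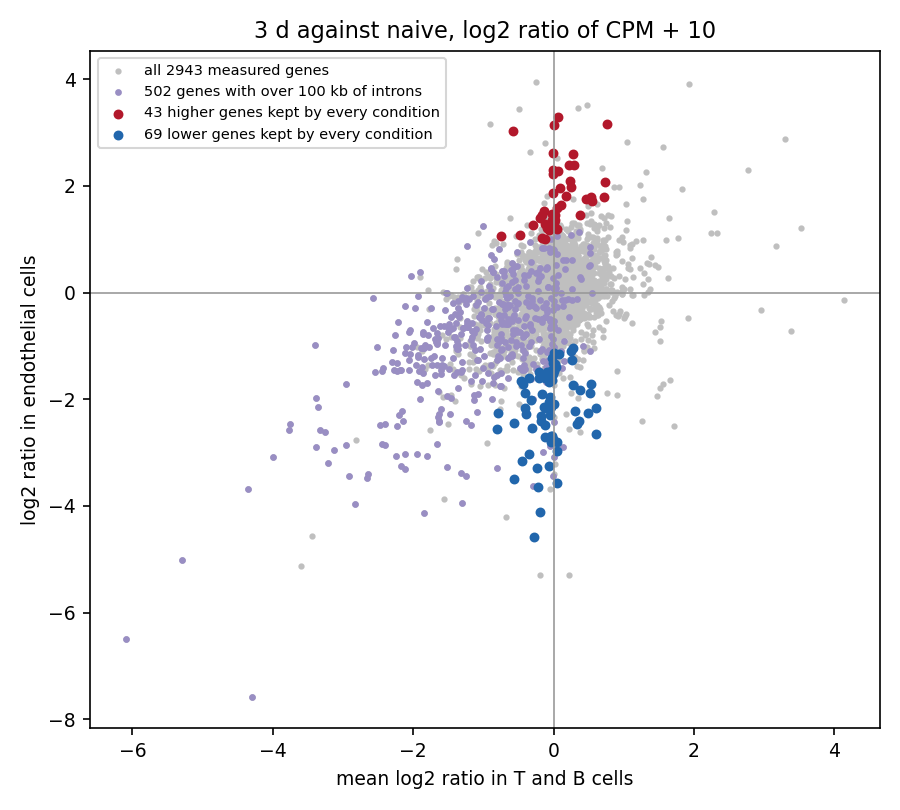
Each point is 1 of 2943 measured genes, with its mean log2 ratio of T and B cells on the x axis and that of endothelial cells on the y axis, 3 d against naive. Genes with over 100 kb of introns lie towards the lower left, and the 43 higher and 69 lower genes that passed every added condition are marked, their T and B cell ratios being under 1 in size because one of the conditions required it.

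Interferon-response genes were lower in endothelial cells of both transplant libraries. These genes encode proteins induced by interferons, among them guanylate-binding proteins (Gbp genes) and immunity-related GTPases (Iigp1, Irgm1, Igtp, Ifi47) that act on membranes of intracellular pathogens. Summed, they reached 9202 CPM in naive lung (95% interval 8788 to 9631), 3455 CPM at 2 h (2840 to 4164) and 4733 CPM at 3 d (4462 to 5016). The median cell followed, with 7373, 3708 and 4169 CPM. T cells had 870, 1844 and 1118 CPM and B cells 489, 597 and 782 CPM, so that lymphocytes of both transplant libraries lay above those of the naive one.

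Of 24 listed interferon-response genes 18 were measured, 10 were lower at 3 d and none was higher, against 13.8% and 5.81% of all measured genes, and 9 of the 10 were also lower beyond T and B cells, where 5.71% of all measured genes were. Iigp1 had 305 UMIs in 23 naive cells, 2 UMIs in 2 cells at 2 h and 64 UMIs in 18 cells at 3 d, or 1515, 62.8 and 266 CPM. Its log2 ratio was -2.47 in endothelial cells, 0.68 in T cells and -0.02 in B cells. Gbp4 (chr5:105115767-105139586) was at 358, 31.4 and 66.4 CPM in 14, 1 and 15 cells, and Gbp2 (chr3:142620602-142638008) at 377, 0 and 99.6 CPM in 21, 0 and 16 cells. Irgm1 (chr11:48861968-48871683), found in 25 of 52 naive cells and 14 of 68 cells at 3 d, was at 452, 62.8 and 129 CPM. In each of these 4 genes the naive level was the highest. Gbp genes are close paralogs, and the annotated spans of Gbp4 and Gbp8 overlap, so the split of UMIs among them is uncertain.

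The remaining lower members were Gbp3, Ifit1, Isg15, Stat2, Igtp and Ifi47, with log2 ratios from -2.16 to -1.09. Irf9, which binds DNA together with Stat2, had a log2 ratio of 0.27, and Ifitm3, a membrane protein that blocks virus entry, had 2870, 1979 and 1744 CPM and a ratio of -0.72. Averaging over cells instead of summing them moved the median of the list from -1.09 to -0.69. Of 8 lower members with a RefSeq promoter, 7 held the interferon element within 250 bases before a start. The Gbp2, Irgm1 and Ifit1 sequences shown are examples. Of 7 measured members that were not called, 2 held it, and this difference between few genes was not tested. In the whole list 11 of 20 held it, so a share above that of all lower genes (4.98%, these 8 included) was set by the choice of list. Nlrc5, the activator of MHC class I genes, was lower at 209, 31.4 and 20.8 CPM in 13, 1 and 5 cells. It was the only called gene of 11 measured class I genes, against 13.8% of all measured genes lower.

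**Figure D4:**
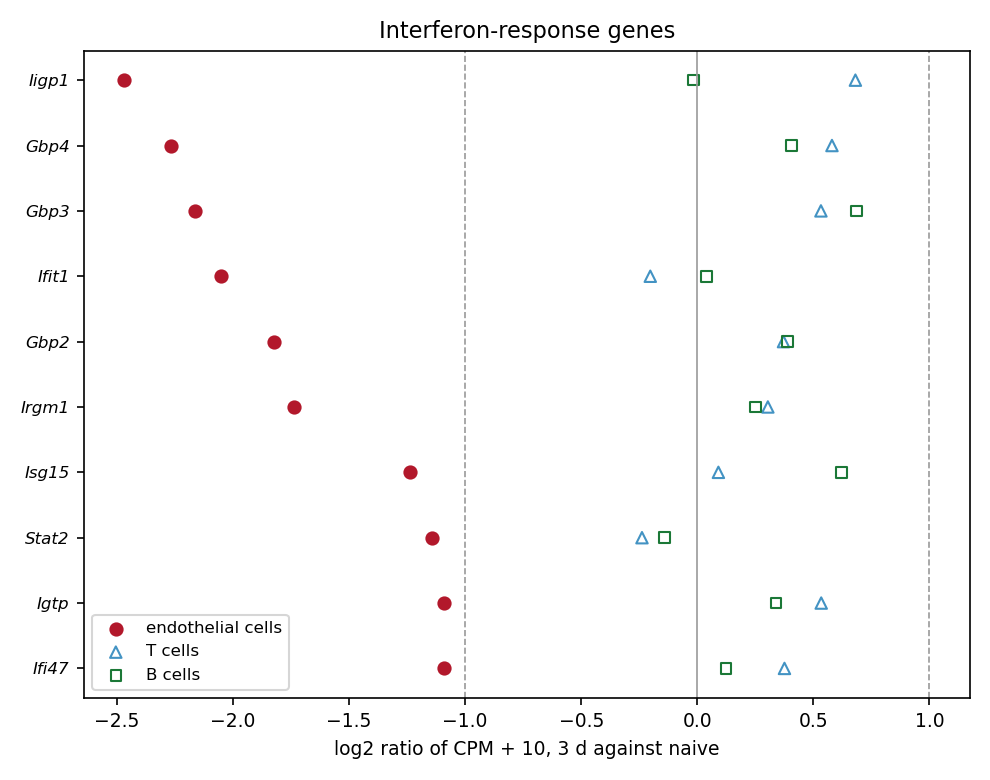
Log2 ratios of CPM + 10 at 3 d against naive (x axis) are shown for the 10 of 18 measured interferon-response genes that were lower, the others being left out of the plot (y axis) in endothelial cells (filled circles), T cells (triangles) and B cells (squares), with dashed lines at -1 and 1. In endothelial cells they run from -2.47 for Iigp1 to -1.09 for Ifi47, and in lymphocytes none lies at or below -1.

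MHC class II genes, which present antigen to helper T cells, rested on 1 cell. H2-Aa, H2-Ab1, H2-Eb1 and Cd74 were called lower among 5 measured class II genes, against 13.8% of all measured genes. The 7 class II genes summed to 4663, 1194 and 1080 CPM. However, 697 of the 939 naive UMIs lay in 1 cell, the deepest one of 27857 UMIs, which was also called a doublet and held 136 of the 198 pan-leukocyte UMIs of the naive cells. Without that cell the naive level was 1395 CPM, and the 3 d level without its own highest cell was 942 CPM. The median log2 ratio of the 5 measured class II genes was -1.93 with all cells and -0.13 without called doublets.

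Immediate early genes, which encode transcription factors and phosphatases switched on within minutes of a stimulus, were higher after transplantation. Together the 15 genes reached 13419 CPM in naive lung (12917 to 13934), 27139 CPM at 2 h (25359 to 29011) and 21964 CPM at 3 d (21376 to 22564). The 2 h level was the highest, and intervals did not overlap. T cells had 2283, 5289 and 2921 CPM and B cells 3528, 7477 and 3830 CPM, in the same order. At 3 d 6 of 14 measured members were higher and none lower, against 5.81% and 13.8% of all measured genes, namely Jun, Ier2, Dusp1, Btg2, Nr4a1 and Klf6. Beyond T and B cells 3 of the 6 were higher (Ier2, Btg2 and Nr4a1), against 3.06% of all.

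Nr4a1, a nuclear receptor induced by growth factors, had 3 UMIs in 2 naive cells, 3 UMIs in 2 cells at 2 h and 66 UMIs in 26 cells at 3 d, a log2 ratio of 3.51 (without the added 10 CPM, counting interval 2.59 to 6.52). Btg2, which restrains proliferation, was at 452, 597 and 1428 CPM in 23, 10 and 41 cells. Ier2 was at 363, 2544 and 847 CPM in 24, 18 and 45 cells, highest at 2 h. Dusp6, a phosphatase that ends ERK signalling, had 1 UMI in the naive library, 4 at 2 h and 30 UMIs in 13 cells at 3 d, and Spry4, another feedback inhibitor of receptor tyrosine kinases, had 6, 5 and 45 UMIs in 4, 3 and 16 cells. At 3 d no single cell held more than 26.7% of the UMIs of Nr4a1, Btg2, Ier2 or Dusp6.

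Some flow-responsive and Notch genes were also higher at 3 d. Klf2, a transcription factor that laminar flow induces in endothelium, was at 412, 848 and 947 CPM in 21 of 52, 10 of 23 and 44 of 68 cells, with log2 ratios of 1.18 in endothelial cells, -0.11 in T cells and -0.02 in B cells. Klf4, its close relative, was at 492, 660 and 1171 CPM in 23, 10 and 48 cells. Of 8 shear stress genes that the rule did not use, 4 were higher (Klf2, Klf4, Klf6 and Kdr) and 1 lower, against 5.81% and 13.8% of all measured genes, and 2 of the 4, Klf2 and Kdr, lay beyond T and B cells, against 3.06% of all. The lower one was Nos3, the endothelial nitric oxide synthase, with 24 UMIs in 8 naive cells and 7 UMIs in 5 cells at 3 d. Klf6 was already counted among the immediate early genes, and Kdr is counted again among aerocyte and VEGF genes, so these lists are not separate results.

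Of 12 Notch genes 6 were measured and 2 were higher, both beyond T and B cells, where 3.06% of all measured genes were. The ligand Dll4, which is counted again among arterial and VEGF genes, had 12 UMIs in 8 naive cells and none at 2 h. At 3 d it had 59 UMIs in 23 cells, a log2 ratio of 1.87. The target Hes1 was at 59.6, 314 and 357 CPM in 7, 6 and 25 cells, a log2 ratio of 2.40. The receptors Notch1 and Notch4 were not called, with ratios of 0.82 and 0.76. For Dll4, 0 UMIs at 2 h allow up to 94.2 CPM, below the 3 d level of 245 CPM (186 to 316) but not below the naive level of 59.6 CPM.

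Ccn1, Cyp26b1 and Sema7a, genes of unlike function, were among the higher genes beyond T and B cells. Ccn1, a matricellular protein (chr3:145646976-145649981), had 7 UMIs in 6 naive cells, 5 UMIs in 3 cells at 2 h and 103 UMIs in 25 cells at 3 d, or 34.8, 157 and 428 CPM. Cyp26b1, which degrades retinoic acid, was at 9.93, 62.8 and 166 CPM in 2, 2 and 16 cells, and Sema7a, a membrane-anchored semaphorin, at 19.9, 188 and 174 CPM in 4, 6 and 15 cells. For Ccn1, Cyp26b1 and Sema7a the ratio without each library's highest cell was 3.34, 3.17 and 2.65, close to 3.29, 3.14 and 2.63 with it, and the counting interval of Cyp26b1 without the added 10 CPM, which rests on 2 naive UMIs, was 2.12 to 7.16.

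Of 10 measured basement membrane and matrix genes 5 were higher and none lower, against 5.81% and 13.8% of all measured genes. One cell of 22551 UMIs, the one that held most fibroblast UMIs, had 197 of the list's 925 UMIs at 3 d, and the median log2 ratio of the list went from 0.87 to 0.37 without the 5 deepest cells of each library. Col4a1, a chain of the vascular basement membrane collagen, was at 402, 346 and 855 CPM in 22, 8 and 39 cells, and Timp3, an inhibitor of matrix proteases, at 392, 722 and 797 CPM in 17, 8 and 28 cells. Sparcl1 was at 114, 251 and 390 CPM in 8, 6 and 17 cells. Both others rested on few cells or were shared, since 84.3% of the 3 d UMIs of Mgp lay in 1 cell and Fn1 had ratios of 3.15 and 3.44 in T and B cells. Smad7, the feedback inhibitor of TGF-beta signalling, was the only called member of 13 measured BMP and TGF-beta genes, at 109, 188 and 295 CPM in 10, 4 and 29 cells.

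Several of the largest higher ratios came from single cells. Npnt, Gsn, Inmt and Gpx3 had 94.3%, 87.9%, 87.3% and 86.0% of their 3 d UMIs in 1 cell each. Npnt had no UMI in the naive library or at 2 h and 35 UMIs in 2 cells at 3 d, and all 4 are known from lung fibroblasts or other stromal and epithelial cells. Without cells holding at least 3 UMIs of 9 fibroblast genes, which removed 2 of 68 cells at 3 d, the log2 ratio of Gsn went from 3.46 to -0.62 and that of Inmt from 3.45 to -0.03. Hspa1b, a stress-induced heat shock protein, was by contrast found in 15 cells at 3 d, with ratios of 2.82 in endothelial cells, 0.77 in T cells and 1.32 in B cells, although reads of its near-identical copy Hspa1a could be counted for it.

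Vein genes were concentrated in a few deep naive cells. The 10 listed genes reached 3228 CPM in naive lung (2985 to 3486), 628 CPM at 2 h (384 to 970.2) and 489.9 CPM at 3 d (406 to 587). In the median cell they made 165, 0 and 220 CPM, so the typical naive cell was not higher. One naive cell of 22081 UMIs held 251 of the 650 UMIs. Of 7 measured members 6 were lower and none higher, against 13.8% and 5.81% of all measured genes. Their median log2 ratio of -3.21 became -1.62 without the 5 deepest cells of each library, -1.35 as a mean over cells and -1.05 with cells thinned.

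Selp, the adhesion molecule P-selectin that venous endothelium stores for leukocyte rolling (chr1:164115264-164150026), had 208 UMIs in 7 of 52 naive cells, 1 UMI at 2 h and 4 UMIs in 2 of 68 cells at 3 d. Vcam1, a ligand for leukocyte integrins, had 71 UMIs in 9 naive cells and 7 UMIs in 2 cells at 3 d. Vwf, the von Willebrand factor, had 195 UMIs in 16 naive cells and 57 UMIs in 22 cells at 3 d, so that more cells held fewer UMIs. Vegfc, Slc6a2 and Prss23 were also lower, with ratios of -3.44, -3.40 and -2.33 (without the added 10 CPM, counting intervals -6.56 to -2.59, -7.57 to -2.51 and -3.73 to -1.58), and Ephb4, a venous receptor of ephrins, was not called at -0.04. After thinning, Selp was found in 8.82% of naive cells and 1.96% at 3 d, and these intervals overlapped.

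Adhesion and chemokine genes, a list that shares Selp and Vcam1 with the vein genes, gave a mixed picture. Of 12 measured members 5 were lower, all beyond T and B cells (Selp, Vcam1, Icam1, Cxcl10 and Cxcl16), and 1 was higher, against 5.71% lower beyond T and B cells and 5.81% higher among all measured genes. Icam1, the ligand of LFA-1, was at 1132, 722 and 527 CPM in 27, 11 and 34 cells, a log2 ratio of -1.09, and -0.47 as a mean over cells. Cxcl10 had 41 UMIs in 6 naive cells and 6 in 4 cells at 3 d, and Cxcl16 had 25 in 9 and 7 in 7 cells. The higher one was Cxcl2, a neutrophil attractant, which had no naive UMI and 34 UMIs in 25 cells at 3 d. With 10 CPM added its log2 ratio was 3.92, against 1.30 and 2.55 in T and B cells. The 0 naive UMIs allow up to 14.9 CPM, and at that level its ratio would not lie 1 beyond that of B cells. Icam2, Cxcl12 and Ackr3 were not called.

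Aerocyte genes were higher at 3 d in the sums. The 10 listed genes reached 1644 CPM in naive lung (1471 to 1831), 2607 CPM at 2 h (2077 to 3232) and 4364 CPM at 3 d (4104 to 4636), and T and B cells had at most 20.2 CPM. Of 9 measured members 8 were higher and none lower, 7 of them beyond T and B cells, against 5.81% of all measured genes higher and 3.06% beyond T and B cells. Car4, a membrane carbonic anhydrase (chr11:84957786-84966044), had 33 UMIs in 14 naive cells, 15 in 4 cells at 2 h and 108 in 17 cells at 3 d. Kdr, the main VEGF receptor, had 71 UMIs in 20 cells, 2 in 2 cells and 189 in 41 cells, and Chst1, a sulfotransferase, had 3, 2 and 32 UMIs in 2, 2 and 9 cells.

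These sums leaned on deep cells too. As a mean over cells the list was at 3421, 1873 and 4050 CPM and its median log2 ratio went from 1.40 to 0.40, and that of Car4 itself from 1.40 to -0.14. The share of thinned cells with a Car4 UMI was 11.8% (3.30 to 27.5%) in the naive library and 21.6% (11.3 to 35.3%) at 3 d, and that with a Kdr UMI was 23.5% (10.7 to 41.2%) and 45.1% (31.1 to 59.7%). Both pairs of intervals overlapped. Arterial genes lay in between, with 998.2, 911 and 1843 CPM over 10 genes and 3 of 6 measured members higher (Efnb2, Dll4 and Mgp), against 5.81% of all measured genes, and connexin 40 (Gja5) was detected in 1, 2 and 2 cells. The median log2 ratio of the arterial list went from 0.68 to 0.12 without the 5 deepest cells of each library, and 94 of its 444 UMIs at 3 d lay in 1 cell, as did most of those of Mgp.

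**Figure D5:**
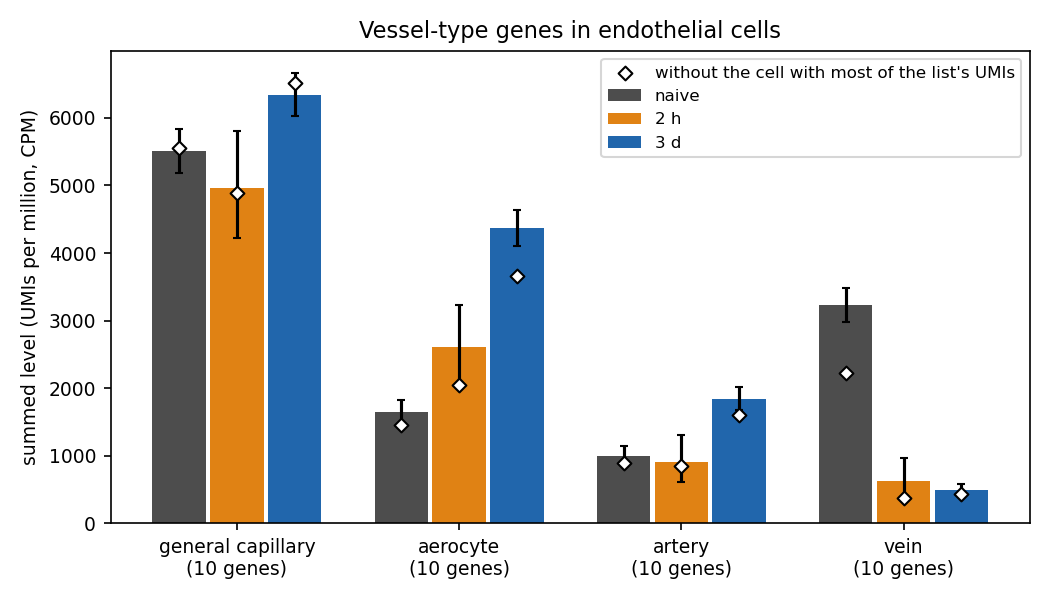
Bars give summed levels (y axis, CPM) of 4 lists of 10 vessel-type genes in endothelial cells of each library, with exact 95% counting intervals, and diamonds the level without the 1 cell that held most of the list's UMIs. The naive vein sum is 3228 CPM with that cell and 2226 CPM without it, and aerocyte sums run from 1644 to 4364 CPM.

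Few barrier genes were called. Of 13 measured junction genes that the rule did not use, 1 was higher, Robo4, a stabiliser of the vascular barrier, at a log2 ratio of 1.13, and 1 was lower, against 5.81% and 13.8% of all measured genes. Their median ratio was 0.11. The remaining 11 had ratios from -0.97 for Jam2, a junctional adhesion molecule, to 0.89 for S1pr1, a receptor of sphingosine 1-phosphate. In the VEGF and angiopoietin system Kdr and Dll4 were higher and Vegfc lower among 10 measured genes, and Tek, Tie1 and Flt1 had ratios of 0.52, 0.18 and 0.39. None of 5 lipid uptake genes and none of 3 measured cell cycle genes was called, and Mki67, a proliferation marker, was found in 1 of 52, 1 of 23 and 0 of 68 cells.

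A stricter group of genes was set after the values had been seen. It kept genes beyond T and B cells whose own T and B ratios were under 1 in size, which were found in at least 10 cells of the higher library, which stayed called without their highest cells and as a mean over cells, and which were above all other kept cells there. Of 90 higher genes 43 remained, and of 168 lower genes 69. Among the 43 were Ccn1, Dusp6, Cyp26b1, Sema7a, Hes1, Dll4, Spry4, Btg2, Ier2, Klf2 and Smad7 from those described, and also Ddit3, a stress transcription factor with 3, 1 and 34 UMIs in 3, 1 and 16 cells, Tiparp, a target of the aryl hydrocarbon receptor with 26, 1 and 113 UMIs in 16, 1 and 27 cells, and Plk2, a kinase with 17, 23 and 95 UMIs in 9, 13 and 35 cells.

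Among the 69 lower genes were Gbp2, Gbp3, Gbp4, Gbp5, Gbp6, Gbp8, Iigp1, Irgm1, Ifi47 and Tgtp2 of the interferon-induced GTPases. Jak2, a kinase of cytokine receptors, had 77 UMIs in 16 naive cells, none at 2 h and 15 UMIs in 13 cells at 3 d. Ghr, the growth hormone receptor, was at 1008, 157 and 137 CPM in 26, 5 and 20 cells, Prickle2, a planar polarity gene, at 1202, 31.4 and 208 CPM in 25, 1 and 26 cells. Itga5, the fibronectin receptor subunit, was at 541, 31.4 and 108 CPM in 16, 1 and 16 cells, and since 59.6% of its naive UMIs lay in 1 cell its log2 ratio of -2.22 was -1.27 without each library's highest cell. Of these 69 genes 34 had over 100 kb of introns, Ghr and Prickle2 among them, against 2 of the 43 higher genes. Of the GTPases named only Gbp8 was among those 34, and Jak2 and Itga5 were not.

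The largest lower ratios beyond T and B cells included single-cell effects as well. Olr1, a scavenger receptor for oxidised lipoprotein, had 142 UMIs in the naive library, 99.3% of them in 1 of 2 cells, and Adamts4, a matrix protease, had 85.7% of 56 UMIs in 1 cell. Il1r1, the interleukin-1 receptor, had 66 UMIs in 8 naive cells, 1 at 2 h and 2 at 3 d, a log2 ratio of -4.21 (without the added 10 CPM, counting interval -8.38 to -3.39) that was -3.30 without the 5 deepest cells. Prkg1 and Pde4d, which act downstream of cyclic nucleotides, had ratios of -4.11 and -4.13 (in T and B cells -0.27 and -0.12 for Prkg1, and -1.47 and -2.23 for Pde4d), and both genes span over 100 kb of introns, as do Man1a and Gm30382 below. Gvin1, an interferon-induced GTPase with 64 UMIs in 14 naive cells and 3 at 3 d, had ratios of -1.40 and -1.73 in T and B cells. Man1a, a Golgi mannosidase, and the long non-coding Gm30382 had 93 and 66 naive UMIs and 5 and 1 at 3 d, and the T and B cell ratios were -1.35 and -1.26 for Man1a and 0 and -0.56 for Gm30382. Gvin1, Pde4d and Man1a were thus also lower in both lymphocyte types, by less than in endothelial cells.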

How the data were processed

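The deposited files hold raw UMI counts per gene and cell for 3 single-cell libraries, made by the authors with Cell Ranger (6 in the submitters' notes, with mm10; headers name 7.1.0 for naive and 6.0.0 for both transplants), and antibody counts for the transplants. No source used here states if introns were included. The methods name a 3′ kit and the labels both 5′ and 3′ kits. Of 32285 genes, 32235 matched GENCODE vM21 (GRCm38) for positions and introns, and promoters came from RefSeq (GRCm38.p6).

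Cells with over 200 genes and under 10% mitochondrial UMIs were kept (2628 of 2921 naive, 10283 of 10328 at 2 h, 8514 of 9016 at 3 d; 28538529, 10749100 and 70750470 UMIs in the files). T cells had at least 3 UMIs of Cd3d, Cd3e and Cd3g and no Cd79a (349, 765 and 900 cells), B cells at least 3 of Cd79a, Cd79b and Ms4a1 and none of the Cd3 genes (320, 610 and 1820), both with under 3 UMIs of the 5 endothelial genes and under 2% S100a8 and S100a9. UMIs were summed per library and compared as CPM with numpy 2.4.6 and pandas 2.3.3, without a test, since each condition had 1 library. Intervals are exact at 95% (Clopper-Pearson for shares, Poisson for sums, conditional binomial for ratios, scipy 1.17.1) and cover counting error only. The floor behind a 0 is 3 counts. Scrublet (scanpy 1.11.5) called 50, 397 and 277 cells doublets, 1, 0 and 1 of them endothelial, and these were kept except in 1 alternative. Scripts were tested on simulated data.

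Genes named were the rule genes, Ptprc, members of the lists (the most abundant or those called) and, in each direction, the 12 largest ratios beyond T and B cells that also exceeded all other kept cells, without immunoglobulin, haemoglobin, mitochondrial, Y-linked genes and Xist. Others, from the stricter group and Spry4, Tspan7 and the antibodies' genes, were chosen after their values were seen. The endothelial cells, lists and motifs were chosen with earlier results of these data known. Some items that these rules would name are not reported here.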

Additional observations from a re-analysis of the deposited data

How the results depend on the processing

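No paired analysis was possible because each condition had 1 library. The 3 d share of 0.799% was 0.587% with at least 5 UMIs of the rule genes and 0.611% without cells holding a Ptprc UMI. The 171 higher genes became 437 with cells thinned to 1000 UMIs, 1123 with no filter on low values and 263 with B cell ratios subtracted. The 407 lower genes became 1281 with no filter, 256 with T cell ratios subtracted and 193 without genes of over 100 kb of introns. Beyond T and B cells, 90 higher genes became 327 (thinned) and 711 (no filter), and 168 lower genes became 340 (thinned), 592 (no filter) and 99 (without long introns). The alternatives run on these last 2 counts were chosen after seeing the data, as were those on deep, fibroblast-containing and top cells. Without the gene's top cell, 158 of the 171 and 342 of the 407 remained, as a mean over cells 97 and 259, and with cells thinned 103 and 291. In the same order, 81, 55 and 54 of the 90 and 138, 118 and 116 of the 168 genes beyond T and B cells remained.

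Among gene lists with a median log2 ratio of at least 1 in size, 3 alternatives reversed the sign. Smaller medians also crossed 0, as for pan-leukocyte genes, from -0.47 to 1.03 as a mean over cells. That of all 16 measured junction genes, rule genes included, went from 0.37 to -0.11 with cells thinned. The monocyte and macrophage median of 1.12 became -0.26 with T cells and -1.11 with B cells subtracted, and the fibroblast median of 3.45 became -0.034 without cells holding fibroblast UMIs, which also gave -0.62 for Gsn, -0.034 for Inmt and -0.040 for Gpx3. Gpx3 was -0.11 without the 5 deepest cells and -0.12 as a mean over cells. Beside these, for the 12 genes of largest ratio in each direction, 14 alternatives (of Npnt, Mgp, Fibin, Gpx3, Olr1 and Adamts4) fell short of a log2 ratio of 1 in size. Other genes described, such as Car4 and Icam1, also fell short as a mean over cells. The cause was not tested. Depth limits the 2 h library most, where a count of 0 allows up to 94.2 CPM.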
